A study of Mus musculus with 20 samples.

Results

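Acod1, the enzyme that makes itaconate, and 8 genes of the tricarboxylic acid (TCA) cycle and its citrate outlet were followed by RNA-seq in BV-2 microglia. The 9 members were chosen by name: Acod1 (formerly Irg1), Cs, Idh1, Idh2, Idh3a, Ogdh, Fh1, Mdh2 and Slc25a1. They are 9 of the 55487 genes counted and 9 of the 12799 genes that passed the filter on low counts, so no member was lost to that filter. BV-2 is an immortalized microglial line, derived from brain cultures of young C57BL/6 mice and labelled wild type. Young BV-2 microglia, the control cells, were at a low passage, whereas aged BV-2 microglia came from prolonged cultivation of a later starting passage, after which they were frozen. Aliquots of both ages were thawed together. Each age was either left untreated or given 100 ng/ml of bacterial lipopolysaccharide (LPS) for 6 hours, which makes 4 groups of 5 cultures, and the replicate numbers 1 to 5 are batch numbers in the labels, with 1 culture of every group in each batch. Whether the aged cultures go back to a single long-term culture is not given in the sources used here, so the age comparison may rest on 1 such culture, and all p-values measure the spread between these cultures. The 2 ages also differ in starting passage, which cannot be told apart from the time in culture.

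The TCA cycle burns acetyl groups in the mitochondrion: citrate synthase (Cs) joins acetyl-CoA to oxaloacetate, isocitrate and 2-oxoglutarate dehydrogenases release carbon dioxide, and fumarase (Fh1) and malate dehydrogenase (Mdh2) restore oxaloacetate. In macrophages and microglia exposed to LPS, Acod1 decarboxylates cis-aconitate, an intermediate between citrate and isocitrate, to itaconate, which inhibits succinate dehydrogenase and dampens inflammatory output. Citrate can also leave the mitochondrion through Slc25a1, the citrate carrier, to feed acetyl-CoA synthesis in the cytosol.

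The libraries held 11371508 to 16829292 counts each. Levels are CPM (counts relative to library size) after TMM scaling, in which edgeR adjusts library sizes so that most genes do not move, and levels of different genes were compared only per kilobase (kb) of exon. Differences are log2 fold changes with their standard errors (SE) from edgeR's quasi-likelihood test, and genes with an adjusted p under 0.05 over all 12799 genes are called DEGs. Of 12 microglial and macrophage markers, 11 passed the filter, with a summed level of 2318 to 4414 CPM over the 20 cultures, and Sall1 stayed at or below 3 counts in every culture. All 5 neuronal and all 4 fibroblast markers stayed at or below 3 counts, and the summed astrocyte, oligodendrocyte and endothelial markers reached at most 1.78 CPM in any culture. In such bulk cultures, fewer cells expressing a gene and less RNA per cell cannot be told apart.

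The stretches before the RefSeq starts of Acod1, Cs and Idh2 are shown because these 3 genes were the members called between aged and young untreated cultures, and because they moved in different ways under LPS. They are RefSeq sequences of GRCm38.p6, read 5′ to 3′ along the strand of the gene and ending within 12 bases of the RefSeq start. Capitals mark matches to 8 motifs searched on both strands: the TATA box (TATAAA), the GC box (GGGCGG), the CCAAT box, the core bound by ETS factors such as PU.1 (GGAAGT), the AP-1 site (TGANTCA), the core of the interferon-stimulated element (GAAANNGAAA), the interferon-gamma-activated site (TTCNNNGAA) and the NF-kappaB consensus. Acod1 lies at chr14:103046977-103056573 on the plus strand, Cs at chr10:128337734-128362479 on the plus strand, and Idh2 at chr7:80094846-80115392 on the minus strand. The printed windows are chr14:103046762-103047006, chr10:128337477-128337726 and chr7:80115363-80115600. GENCODE places the starts of Acod1 and Idh2 further upstream than RefSeq, so that the last 30 bases of both windows, with the TATAAA of Acod1 and both GC boxes of Idh2, lie within the first exon it annotates.
Acod1: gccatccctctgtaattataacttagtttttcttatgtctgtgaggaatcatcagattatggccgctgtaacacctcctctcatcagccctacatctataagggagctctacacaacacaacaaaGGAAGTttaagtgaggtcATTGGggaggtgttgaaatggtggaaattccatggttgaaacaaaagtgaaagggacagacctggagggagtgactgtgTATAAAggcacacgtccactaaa
Cs: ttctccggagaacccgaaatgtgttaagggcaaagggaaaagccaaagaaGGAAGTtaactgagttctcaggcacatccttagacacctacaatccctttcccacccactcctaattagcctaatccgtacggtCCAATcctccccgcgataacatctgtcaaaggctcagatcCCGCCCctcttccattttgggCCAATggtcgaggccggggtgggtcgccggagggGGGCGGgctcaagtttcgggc
Idh2: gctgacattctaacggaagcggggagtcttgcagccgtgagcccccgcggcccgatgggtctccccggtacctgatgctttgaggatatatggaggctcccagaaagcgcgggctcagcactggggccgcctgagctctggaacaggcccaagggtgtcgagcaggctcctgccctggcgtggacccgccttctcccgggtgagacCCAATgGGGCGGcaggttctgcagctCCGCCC

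The Acod1 window held the letters TATAAA 28 to 23 bases before the RefSeq start, 1 inverted CCAAT and 1 GGAAGT, and no GC box. The Cs window held 2 GC boxes, 2 CCAAT matches and 1 GGAAGT, and that of Idh2 held 2 GC boxes and 1 CCAAT. No printed matches of different motifs share a base. A window of 250 bases before a RefSeq start was given for 8 members, all but Idh3a. GC boxes were found in 7 of these 8 and CCAAT in 7 of 8, against 32.7% and 33.8% of all 32851 such windows. TATAAA was found in Acod1 alone among the 8, against 12.4% of all windows, and GGAAGT in 3 of 8 (Acod1, Cs and Mdh2), against 19.7%. The NF-kappaB consensus matched once, in Slc25a1, against 3.9% of all windows, and AP-1 (6.75%), the interferon-stimulated core (2.98%) and the gamma-activated site (7.02%) matched in none of the 8. Such matches describe letters only, and their absence from a window says nothing about binding of the factor.

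Acod1, the itaconate-making enzyme, was the member with by far the widest range. Its level in the young untreated cultures 1 to 5 was 120.9, 20.9, 23.2, 21.7 and 22.6 CPM, and in the aged untreated cultures 5.17, 4.10, 2.00, 2.74 and 6.32 CPM. Every aged culture lay below every young one, and young culture 1 stood far above the other 4 young cultures. After LPS, the young cultures reached 3173, 3889, 3578, 3488 and 3619 CPM and the aged ones 2361, 1912, 2095, 1836 and 2319 CPM. Both ages moved by orders of magnitude, and the ranges of the 2 ages did not overlap after LPS either.

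**Figure D1:**
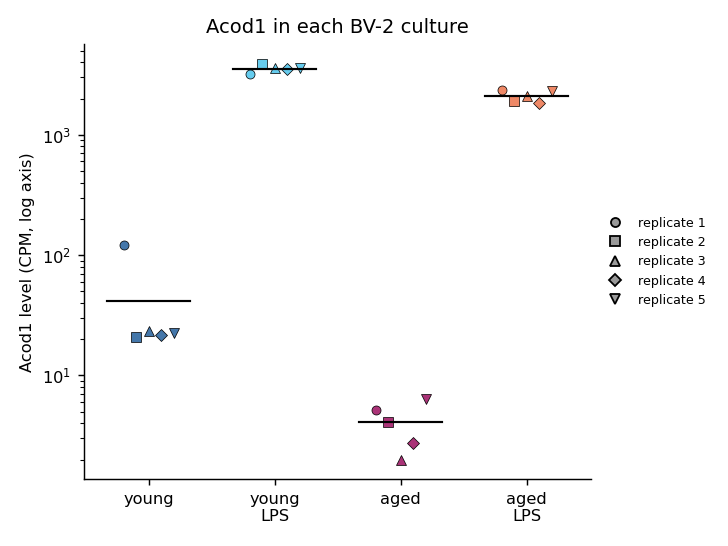
Level of Acod1 in CPM on a log axis in each of the 20 BV-2 cultures, by group. Symbols mark the replicate (batch) number and the bar is the group mean; aged cultures lie below young ones both untreated (2.00 to 6.32 against 20.9 to 120.9 CPM) and after LPS (1836 to 2361 against 3173 to 3889 CPM).

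LPS raised Acod1 85.1-fold in young BV-2 microglia (log2 fold change 6.41, SE 0.429, edgeR adjusted p = 9.44e-12) and 526-fold in aged ones (9.04, SE 0.506, edgeR adjusted p = 8.23e-13). Per kb of exon, Acod1 rose from place 3577 (5725 without young untreated culture 1) to place 15 among the 12799 genes in young cultures and from place 10082 to place 22 in aged cultures. It then took 0.323% of all counts in young and 0.203% in aged LPS cultures. The increase within a batch was 4.71 to 7.53 on the log2 scale in young and 8.49 to 9.94 in aged cultures, so each batch showed it at both ages.

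In untreated cultures, Acod1 was lower in aged than in young BV-2 microglia at a log2 fold change of -3.38 (SE 0.455, edgeR adjusted p = 4.73e-05), a 10.4-fold difference. Without young untreated culture 1 the difference was -2.47 (edgeR adjusted p = 1.48e-08), or 5.53-fold, and the young LPS response was 7.32, or 160-fold. After LPS, the aged level was lower at -0.75 (SE 0.336), a 1.69-fold difference that missed the threshold in the fit of all 20 cultures (edgeR adjusted p = 0.0996) although no aged culture reached a young one and all 5 batches went the same way (-1.02 to -0.43). It passed with the replicate number as a block (-0.79, edgeR adjusted p = 0.0375) and without young untreated culture 1 (-0.75, edgeR adjusted p = 8.52e-05). That culture does not enter this comparison but does enter the estimate of the spread. In a fit of the LPS groups alone the SE was 0.0782 (edgeR adjusted p = 4.80e-05). Acod1 passed here in 5 alternatives in all and missed the threshold in 9. It missed with library sizes alone (edgeR adjusted p = 0.1191) and with the size factors of DESeq2 in edgeR (edgeR adjusted p = 0.0937). It passed without replicate 1 (edgeR adjusted p = 1.04e-04) but not without replicate 2, 3, 4 or 5 (edgeR adjusted p = 0.1532 to 0.2755).

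The LPS responses of both ages also differed when set against each other, the aged minus the young response being 2.63 (SE 0.569, edgeR adjusted p = 0.0067). Acod1 was the 1 member of 9 called in this interaction, in which 4.12% of all genes were called higher and 2.27% lower. It was positive in 5 of 5 batches, from 1.18 to 4.09, and was 1.71 (edgeR adjusted p = 1.04e-04) without young untreated culture 1. The larger fold in aged cultures went with a lower level both before and after LPS, since the starting level differed by more than the level reached. With the block the count remained 1 of 9 members, against 9.03% of all genes.

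The 5 genes whose log2 level followed that of Acod1 most closely over the 20 cultures, among 10883 genes, were Rtp4, Saa3, Rsad2, Traf1 and Csf3, with Pearson's r of 0.996, 0.995, 0.993, 0.993 and 0.993. Rtp4 and Rsad2 are interferon-stimulated genes, Saa3 is an acute-phase protein, Traf1 an adaptor of TNF receptors and Csf3 a granulocyte growth factor. All cultures of a treatment share the LPS step, so these values mostly repeat the difference between LPS and untreated cultures, and 333 genes had an r of at least 0.95. In aged untreated cultures Rtp4, Traf1 and Csf3 had means of 0.088, 0.06 and 0 CPM, below the level of 3 counts. Their log2 values there rest mostly on the prior count of 2, so their match with Acod1 within that group was not measured. Once group means were removed, the closest were Rtp4 (0.851), Slfn5 (0.85), Rsad2 (0.846), 6530402F18Rik (0.824) and Saa3 (0.821). Slfn5, like Rtp4, was below the level of 3 counts in aged untreated cultures, with a mean of 0.168 CPM. Its match with Acod1 within that group was not measured either. Acod1 stood furthest from its group mean in young untreated culture 1, so genes picked by these deviations tend to be high there by selection. That culture was above the other 4 young untreated cultures in these genes. For Rtp4 it stood at 3.58 against at most 1.05 CPM, and for Rsad2 at 43.7 against at most 12.7 CPM. Among the other members, Cs followed Acod1 over the 20 cultures with r = 0.816 (place 1787 of 10883 genes). Fh1 ran opposite to it with r = -0.804 (place 9256). With group means removed, these values were 0.278 for Cs and 0.18 for Fh1, so Fh1 did not run opposite within groups.

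Citrate synthase (Cs) makes the citrate from which itaconate derives, and it was the 1 TCA cycle member called higher after LPS at both ages. Its level was 471.5, 456.3, 437.8, 456.2 and 465.0 CPM in young untreated cultures and 593.5, 577.5, 549.8, 566.8 and 578.8 CPM after LPS. In aged cultures it was 499.2, 491.0, 505.4, 498.7 and 498.2 CPM untreated and 610.8, 589.7, 588.8, 567.8 and 601.0 CPM after LPS. Untreated and LPS ranges did not overlap at either age, and the untreated aged range lay wholly above the young one.

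The rise of Cs under LPS was 0.33 (SE 0.0354, edgeR adjusted p = 3.40e-08), or 1.25-fold, in young and 0.25 (SE 0.0353, edgeR adjusted p = 3.36e-06), or 1.19-fold, in aged cultures. With library sizes alone in place of TMM it was 0.11 and 0.09, still past the threshold, while the median of all genes then moved by -0.23 in young and -0.16 in aged cultures. Between ages, untreated Cs was higher in aged cultures by 0.12 (SE 0.0354, edgeR adjusted p = 0.025), or 1.09-fold, in 5 of 5 batches. That call was lost without replicate 2, 3, 4 or 5 (edgeR adjusted p = 0.072 to 0.122) and with no filter on low counts (edgeR adjusted p = 0.156). After LPS the age difference was 0.05 (SE 0.0353, edgeR adjusted p = 0.373) and the ranges overlapped, but with library sizes alone it was 0.13 and called (edgeR adjusted p = 0.00582).

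The members include 3 isocitrate dehydrogenase genes. Idh2, the mitochondrial NADP-dependent enzyme, stood at 283.8, 253.4, 253.1, 239.7 and 250.4 CPM in young and at 220.6, 198.6, 222.3, 189.4 and 211.1 CPM in aged untreated cultures. After LPS it stood at 216.1, 199.7, 196.1, 195.7 and 188.4 CPM in young and at 190.8, 172.6, 185.2, 161.8 and 192.0 CPM in aged cultures. The young untreated cultures were above all 15 others.

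Idh2 was lower in aged untreated cultures, at -0.30 (SE 0.0579, edgeR adjusted p = 0.00177), or 1.23-fold. LPS lowered it, with log2 fold changes of -0.36 (SE 0.0581, edgeR adjusted p = 9.61e-06) in young and -0.21 (SE 0.0582, edgeR adjusted p = 0.00447) in aged cultures, where the ranges overlapped although all 5 batches fell. The difference between these LPS responses was 0.16 (SE 0.0822, edgeR adjusted p = 0.312) and was not past the threshold. Between the LPS-treated ages it was -0.14 (SE 0.0584, edgeR adjusted p = 0.0735), and it was called with the block (edgeR adjusted p = 0.0111).

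Idh3a encodes the catalytic alpha subunit of the NAD-dependent enzyme that turns the cycle itself. Its level was 166.8, 165.7, 159.1, 172.8 and 191.6 CPM in young and 184.6, 186.3, 182.8, 189.3 and 206.4 CPM in aged untreated cultures, and culture 5 was the highest of its group in both. After LPS it was 159.0, 155.9, 147.5, 162.6 and 176.5 CPM in young and 177.6, 176.2, 159.4, 175.6 and 190.2 CPM in aged cultures, culture 5 again the highest. Ranges overlapped in every comparison, whereas within batches the direction was uniform: aged above young in 5 of 5 batches with and without LPS, and LPS below untreated in 5 of 5 batches at both ages. In the fit of all 20 cultures without the block none of its comparisons was called (edgeR adjusted p = 0.087 to 0.153 for the 4 differences). Both age differences passed without replicate 5 (edgeR adjusted p = 0.0481 untreated and 0.0416 after LPS), and with library sizes alone the LPS differences of -0.32 in young and -0.27 in aged cultures and the age difference of 0.21 after LPS passed (edgeR adjusted p = 6.29e-05, 4.28e-04 and 0.00772). With the block, Idh3a was called higher in aged cultures (0.15 untreated, edgeR adjusted p = 0.00253; 0.13 after LPS, edgeR adjusted p = 0.00261) and lower after LPS (-0.09 in young, edgeR adjusted p = 0.0113; -0.11 in aged, edgeR adjusted p = 0.00432).

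Idh1, the cytosolic NADP-dependent enzyme, had a wide spread in 3 of the 4 groups. Its level ran from 108.8 to 120.6 CPM in young untreated cultures, from 79.5 to 126.6 CPM in aged untreated cultures and from 53.4 to 101.6 CPM in aged LPS cultures. The young LPS cultures held 54.3, 97.6, 93.1, 93.4 and 111.9 CPM, so culture 1 was far below the other 4. The LPS differences of -0.32 (SE 0.166, edgeR adjusted p = 0.0923) in young and -0.31 (SE 0.167, edgeR adjusted p = 0.125) in aged cultures did not pass, although LPS was the lower in 5 of 5 batches at both ages. Without young LPS culture 1 the young value was -0.19 (edgeR adjusted p = 0.262). The young value passed with library sizes alone (-0.54, edgeR adjusted p = 0.0069), with no filter on low counts (edgeR adjusted p = 0.0325) and in a fit of the young groups alone (edgeR adjusted p = 0.0468), and the aged value with library sizes alone (-0.47, edgeR adjusted p = 0.0209). The age differences were -0.18 (SE 0.165, edgeR adjusted p = 0.542) untreated and -0.17 (SE 0.168, edgeR adjusted p = 0.511) after LPS, the latter being -0.39 (edgeR adjusted p = 0.0442) without replicate 1.

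**Figure D2:**
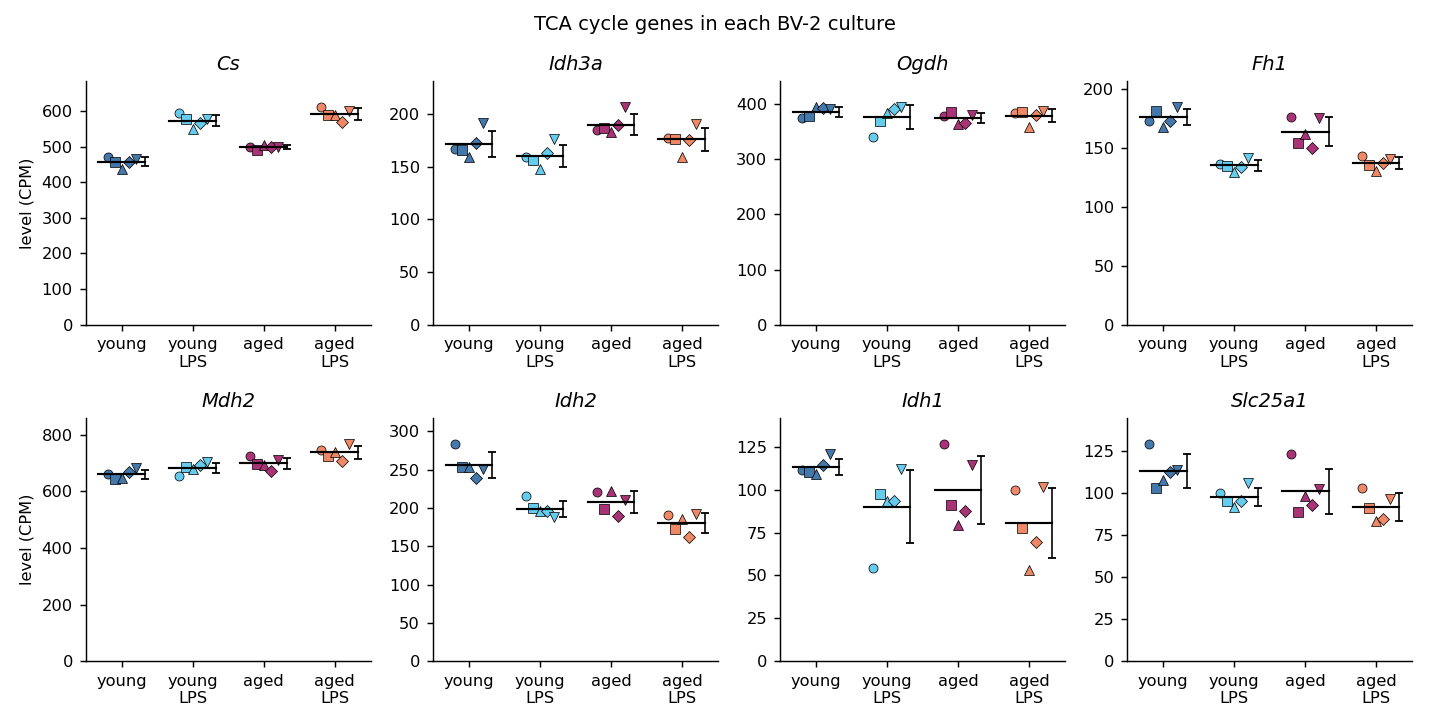
Level in CPM of the 8 TCA cycle and citrate carrier genes in each of the 20 BV-2 cultures, by group, each panel starting at 0. Symbols mark the replicate (batch) number as circle, square, triangle, diamond and inverted triangle for 1 to 5, bars are group means and whiskers 1 SD (n = 5); Cs rises and Fh1 falls with LPS at both ages, and Idh2 is highest in young untreated cultures (239.7 to 283.8 CPM).

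Ogdh, the dehydrogenase subunit of the 2-oxoglutarate complex, moved little. Its group means were 386.7 ± 9.17, 376.2 ± 21.8, 375.2 ± 9.06 and 379.3 ± 11.4 CPM (SD, n = 5) in young, young LPS, aged and aged LPS cultures. All 4 ranges overlapped, and its 4 log2 differences lay between -0.04 and 0.02, with SEs of 0.0413 to 0.0414 and edgeR adjusted p of 0.423 to 0.87. With library sizes alone the LPS difference in young cultures was -0.26 (edgeR adjusted p = 3.19e-05), while the median of all genes moved by -0.23.

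Fh1, the mitochondrial and cytosolic fumarase, fell with LPS. Its level was 172.5, 181.3, 167.9, 172.8 and 184.3 CPM in young untreated and 136.0, 134.5, 129.2, 133.4 and 141.3 CPM in young LPS cultures. In aged cultures it was 176.2, 153.9, 161.8, 149.6 and 175.5 CPM untreated and 143.3, 135.0, 130.5, 136.6 and 140.0 CPM after LPS. No LPS culture reached an untreated one of its age. The fall was -0.38 (SE 0.0481, edgeR adjusted p = 3.25e-07), or 1.30-fold, in young and -0.25 (SE 0.048, edgeR adjusted p = 1.11e-04), or 1.19-fold, in aged cultures. The test of the difference of these responses gave 0.13 (SE 0.0679, edgeR adjusted p = 0.31). With age, Fh1 differed by -0.11 (SE 0.0477, edgeR adjusted p = 0.165) untreated and by 0.02 (SE 0.0483, edgeR adjusted p = 0.763) after LPS.

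Mdh2, which oxidizes malate at the end of the cycle, was the most abundant of the 8 TCA members per kb in every group. After LPS it stood at 655.4, 683.8, 679.4, 694.1 and 702.4 CPM in young and at 746.4, 725.4, 738.6, 705.6 and 767.1 CPM in aged cultures, 2 ranges that did not overlap. The difference was 0.11 (SE 0.0369, edgeR adjusted p = 0.0296), or 1.08-fold. The call was lost with the size factors of DESeq2 in edgeR (edgeR adjusted p = 0.0605), with no filter on low counts (edgeR adjusted p = 0.119), in a fit of the LPS groups alone (edgeR adjusted p = 0.0692), without young LPS culture 1 (edgeR adjusted p = 0.0745) and without replicate 1, 2, 3 or 5 (edgeR adjusted p = 0.0832 to 0.108), whereas it held without replicate 4 and in DESeq2. With no filter and in the fit of the LPS groups alone, Acod1 was the 1 member called in place of Mdh2. Untreated cultures spanned 642.2 to 682.1 CPM in young and 670.5 to 723.7 CPM in aged cells, a difference of 0.08 (SE 0.0369, edgeR adjusted p = 0.164; DESeq2 adjusted p = 0.0462). LPS itself gave 0.05 (SE 0.0369, edgeR adjusted p = 0.244) in young and 0.08 (SE 0.0369, edgeR adjusted p = 0.0825; 0.0474 with the block) in aged cultures, values that turned to -0.17 and -0.08 with library sizes alone.

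Slc25a1, which carries citrate out of the mitochondrion, was lowered by LPS in young cultures, at -0.21 (SE 0.0797, edgeR adjusted p = 0.0231). The cultures ran from 102.7 to 129.0 CPM untreated and from 91.6 to 105.6 CPM after LPS, so the ranges overlapped, but all 5 batches fell. The call was lost without replicate 4 (edgeR adjusted p = 0.0631) and without young untreated culture 1 (-0.16, edgeR adjusted p = 0.0823). In aged cultures, at 88.5 to 123.0 CPM untreated and 83.0 to 102.8 CPM after LPS, the difference was -0.14 (SE 0.0798, edgeR adjusted p = 0.14; 0.0251 with the block and 0.00215 with library sizes alone). Aged untreated cultures differed from young ones by -0.16 (SE 0.0792, edgeR adjusted p = 0.197; 0.0292 with the block) and aged LPS cultures by -0.09 (SE 0.0803, edgeR adjusted p = 0.437).

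**Figure D3:**
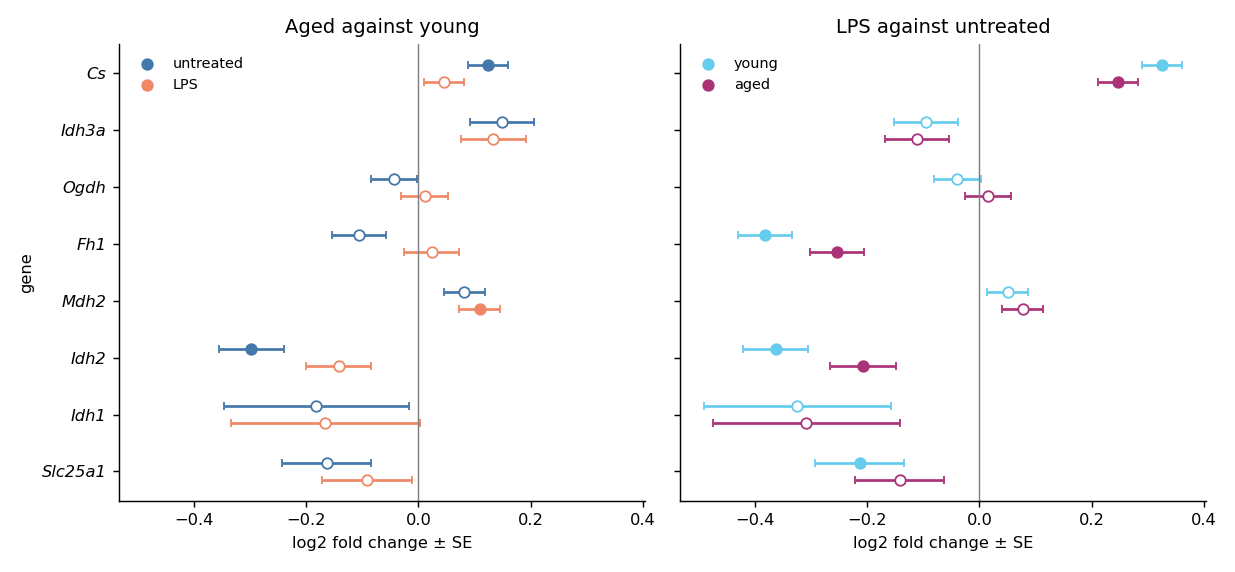
Log2 fold changes with their standard errors of the 8 TCA cycle and citrate carrier genes, aged against young cultures on the left and LPS against untreated cultures on the right. Filled points passed an edgeR adjusted p of 0.05 and open points did not; Cs lies at 0.33 and 0.25 and Fh1 at -0.38 and -0.25 under LPS.

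Counted together, 2 of the 9 members were raised (Acod1 and Cs) and 3 lowered (Idh2, Fh1 and Slc25a1) by LPS in young cultures, where 31.2% of all genes were raised and 33.5% lowered. In aged cultures 2 were raised (Acod1 and Cs) and 2 lowered (Idh2 and Fh1), against 27.5% and 26.9%. Untreated aged cultures had 1 member raised (Cs) and 2 lowered (Acod1 and Idh2) relative to young ones, against 3.71% and 7.81% of all genes. Between the LPS-treated ages 1 member was raised (Mdh2) and 0 lowered, against 14.0% and 15.0%. The untreated groups enter 2 of these comparisons each, as do the LPS groups, so the counts are not independent of each other.

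With the replicate number, a batch in the labels, as a block, 6 of 9 members were called under LPS in young cultures (67.7% of all genes), 7 in aged cultures (58.5%), 5 between untreated ages (17.2%) and 4 between LPS-treated ages (33.4%). Ranges did not overlap for 4 members under LPS in young cultures (49.1% of all genes), for 3 in aged cultures (40.1%), for 3 between untreated ages (10.4%) and for 2 between LPS-treated ages (14.8%). Apart from Acod1, the members' differences were small: between -0.38 and 0.33 for LPS in young cultures, with a median size of 0.27 against 0.35 for all genes, and between -0.30 and 0.15 for age in untreated cultures, with a median size of 0.14 against 0.11.

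The order of the members by level per kb also changed. It depends on the merged length of all annotated exons (5779 bases for Cs, 2588 for Idh2), which can differ from the transcripts expressed. In young untreated cultures Mdh2 led at 185.2 CPM per kb, followed by Idh2 at 98.9, Cs at 79.2, Ogdh at 70.9, Slc25a1 at 52.2, Fh1 at 51.8, Idh1 at 40.8, Idh3a at 33.8 and Acod1 at 16.0 (8.44 without culture 1). Slc25a1 and Fh1 overlapped there, as did Idh3a and Acod1, the latter through young culture 1. After LPS Acod1 led at 1353 CPM per kb in young and 802.4 CPM per kb in aged cultures, above Mdh2 at 191.8 and 206.8, with no overlap. Cs, at 99.2 and 102.4 CPM per kb, was then above Idh2, at 77.0 and 69.7, reversing their order in young untreated cultures. In aged untreated cultures Cs, at 86.3, and Idh2, at 80.5, overlapped.

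Ratios between members within a library need no scaling between libraries. The ratio of Cs to Idh2 per kb was 0.802 ± 0.0433 in young untreated, 1.29 ± 0.0552 in young LPS, 1.08 ± 0.0694 in aged untreated and 1.47 ± 0.0742 in aged LPS cultures (mean ± SD, n = 5). The 4 ranges, 0.744 to 0.852, 1.23 to 1.38, 1.01 to 1.18 and 1.40 to 1.57, did not overlap with each other. Cs and Idh2 had been called in opposite directions for LPS at both ages and for untreated age, so this separation largely repeats those calls. The ratios were added after values were seen. The ratio of Cs to Fh1 was 1.53 ± 0.0526 and 1.80 ± 0.13 in untreated young and aged cultures and 2.50 ± 0.058 and 2.54 ± 0.0772 after LPS, where the ages overlapped. That of Cs to Idh3a was 2.35 ± 0.137 and 2.31 ± 0.117 untreated and 3.15 ± 0.176 and 2.96 ± 0.182 after LPS, overlapping between ages both times. Acod1 stood at 0.199 ± 0.205 of Cs in young and 0.018 ± 0.0078 in aged untreated cultures, and at 13.7 ± 1.16 and 7.83 ± 0.687 times Cs after LPS. Young untreated culture 1 stood at 0.565, and without it the young untreated mean was 0.107 ± 0.0067 (SD, n = 4). Unequal change of the members is what these ratios show, not which member moved.

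**Figure D4:**
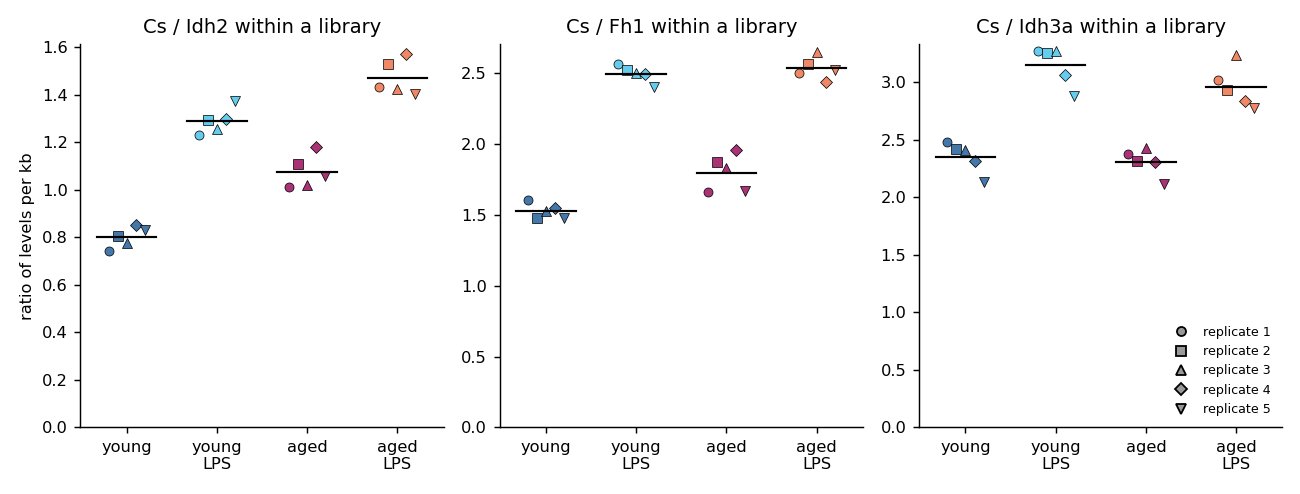
Ratio of the level per kb of Cs to that of Idh2, Fh1 and Idh3a within each library, by group, with axes starting at 0, symbols for the replicate (batch) number and bars at group means. The Cs to Idh2 ratio separates all 4 groups (0.744 to 0.852, 1.23 to 1.38, 1.01 to 1.18 and 1.40 to 1.57 in young, young LPS, aged and aged LPS cultures). Both genes had been called in opposite directions for LPS and for untreated age.

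Among the remaining 12 genes of TCA cycle enzymes, LPS lowered more than it raised. In young cultures 1 rose and 7 fell, where 31.2% of all genes rose and 33.5% fell (median log2 fold change -0.13, all genes -0.01). In aged cultures 1 rose and 4 fell, against 27.5% and 26.9% (median -0.09, all genes 0.00051). Dld, the dihydrolipoamide dehydrogenase shared by the pyruvate and 2-oxoglutarate complexes, rose by 0.42 in young (edgeR adjusted p = 7.45e-09) and 0.37 in aged cultures (edgeR adjusted p = 7.36e-08). Sdhd, a membrane anchor of succinate dehydrogenase, the enzyme that itaconate inhibits, had the largest fall, with log2 fold changes of -0.30 in young (edgeR adjusted p = 2.95e-05) and -0.24 in aged cultures (edgeR adjusted p = 5.43e-04). With age 0 rose and 1 fell, against 3.71% and 7.81% untreated and 14.0% and 15.0% after LPS. This was Idh3g, a regulatory subunit of the NAD-dependent isocitrate dehydrogenase, at -0.24 untreated (edgeR adjusted p = 0.0017) and -0.26 after LPS (edgeR adjusted p = 2.32e-04). Its LPS difference in aged cultures, -0.09, passed with the block (edgeR adjusted p = 0.0425) and not without it (0.126). With the block 9 of the 12 were called under LPS in young (67.7% of all genes), 7 in aged cultures (58.5%), and 2 between untreated ages (17.2%).

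Of 14 genes of pyruvate entry, 12 passed the filter and Pdk2 and Pdk4 did not. LPS raised 1 and lowered 8 in young cultures, against 31.2% and 33.5% of all genes (median -0.16, all genes -0.01). In aged cultures it raised 1 and lowered 5, against 27.5% and 26.9% (median -0.13, all genes 0.00051). Pcx, pyruvate carboxylase, which refills oxaloacetate, rose by 0.71 (edgeR adjusted p = 1.33e-06) and 0.75 (edgeR adjusted p = 9.28e-07). Pdpr, the regulatory subunit of pyruvate dehydrogenase phosphatase, had log2 fold changes of -1.55 in young (edgeR adjusted p = 1.11e-11) and -0.91 in aged cultures (edgeR adjusted p = 8.70e-08). The difference of 0.65 was itself called (edgeR adjusted p = 0.00873), though not without replicate 2 or 4 (edgeR adjusted p = 0.0657 and 0.0543). It was the 1 call of this list in the interaction, in which 4.12% of all genes were called higher. Pdpr was also the largest of 4 rises between the LPS-treated ages (0.45, edgeR adjusted p = 0.00314), where 14.0% of all genes rose. Mpc1, a subunit of the mitochondrial pyruvate carrier, was the 1 gene of this list lower in aged cultures. Of all genes, 7.81% were lower untreated and 15.0% after LPS. Mpc1 differed by -0.57 untreated (edgeR adjusted p = 1.75e-04) and by -0.48 after LPS (edgeR adjusted p = 2.67e-04). With the block 2 of the 12 were called between untreated ages (17.2% of all genes).

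Around citrate use and its shuttles, 3 of 11 genes rose and 6 fell under LPS in young cultures, against 31.2% and 33.5% of all genes (median -0.11, all genes -0.01). In aged cultures 4 rose and 3 fell, against 27.5% and 26.9% (median -0.05, all genes 0.00051). Me1, the cytosolic malic enzyme that yields NADPH, rose by 0.75 (edgeR adjusted p = 4.60e-07) and 0.52 (edgeR adjusted p = 8.71e-05). Mdh1, the cytosolic malate dehydrogenase, fell, with log2 fold changes of -0.50 (edgeR adjusted p = 7.04e-07) and -0.48 (edgeR adjusted p = 2.17e-06). None was called between untreated ages (3 with the block, against 17.2% of all genes) or in the interaction (1 with the block, against 9.03%). In aged against young LPS cultures 3 were higher, against 14.0%, led by Got1, the cytosolic aspartate aminotransferase, at 0.32 (edgeR adjusted p = 0.00109).

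Of 3 genes described for glutamine entry, Gls2, the liver-type glutaminase, was higher in aged cultures by 1.18 untreated (edgeR adjusted p = 0.00717; 0.0631 without replicate 2) and 1.75 after LPS (edgeR adjusted p = 0.00114), at low levels of 0.834, 0.353, 1.91 and 1.18 CPM in young, young LPS, aged and aged LPS cultures. It fell with LPS in young (-1.25, edgeR adjusted p = 0.00799) and aged cultures (-0.68, edgeR adjusted p = 0.0343), the latter call being lost in 4 of 5 runs that left out a replicate number, with no filter on low counts (edgeR adjusted p = 0.0504) and in DESeq2 (adjusted p = 0.0599). Glud1, glutamate dehydrogenase, stood just past the threshold under LPS in aged cultures (0.15, edgeR adjusted p = 0.0496). That call was lost with the size factors of DESeq2 in edgeR, with no filter, in a fit of the aged groups alone, in DESeq2 and without replicate 2, 3, 4 or 5 (adjusted p = 0.0504 to 0.16), and the value turned to -0.01 with library sizes alone. In young cultures Glud1 was at 0.14 (edgeR adjusted p = 0.0626; 0.0388 with the block).

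Of 4 genes for itaconate breakdown and transport, Sugct and Abcg2 were below the filter. Clybl, which takes part in the breakdown of itaconate by way of citramalyl-CoA, and Slc13a3, a plasma membrane carrier for dicarboxylates including itaconate, both fell with LPS at each age. Of all genes, LPS lowered 33.5% in young and 26.9% in aged cultures. Clybl was added to this list after values were seen, as were Sugct and Abcg2. Clybl had log2 fold changes of -0.33 (edgeR adjusted p = 9.01e-04) and -0.30 (edgeR adjusted p = 0.00238). Slc13a3 had mean levels of 7.28, 1.59, 2.89 and 0.819 CPM in young, young LPS, aged and aged LPS cultures. Its LPS differences were -2.17 (edgeR adjusted p = 1.15e-08) in young and -1.81 (edgeR adjusted p = 5.20e-06) in aged cultures. It was lower in aged than in young cultures, at -1.34 untreated (edgeR adjusted p = 1.18e-04) and -0.98 after LPS (edgeR adjusted p = 0.0174), the latter not without replicate 2 or 3. Mean levels of Slc13a3 and Acod1 were thus lower in aged than in young cultures in both states. For Acod1 after LPS the difference was not called in the fit of all 20 cultures (edgeR adjusted p = 0.0996). Under LPS, Slc13a3 and Acod1 went in opposite directions.

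**Figure D5:**
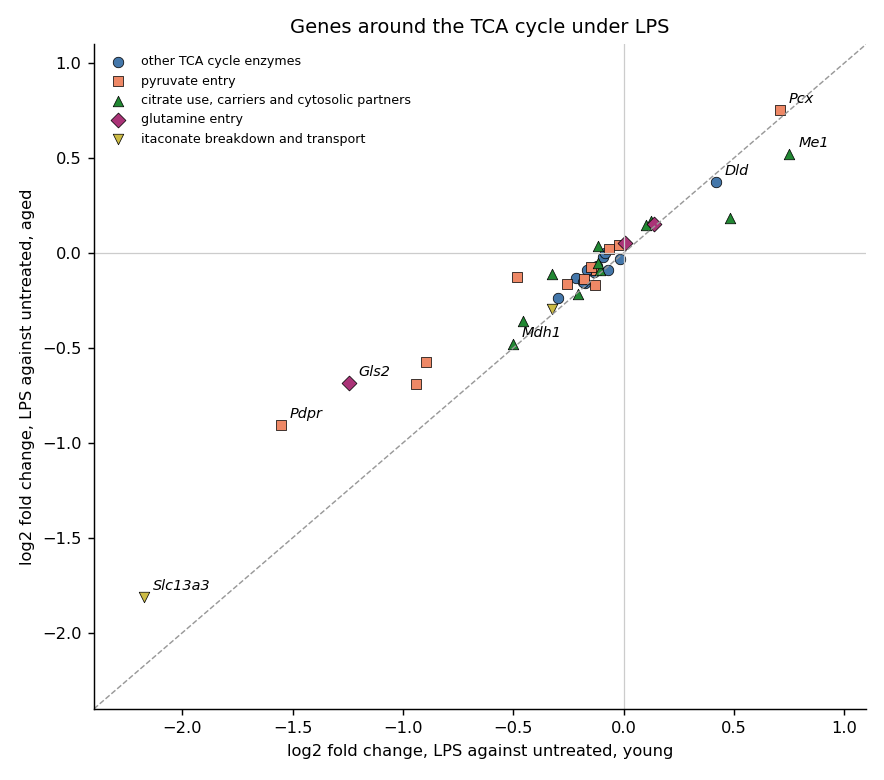
Log2 fold change of LPS against untreated cultures in young (horizontal) and aged (vertical) BV-2 microglia for 40 tested genes of the 5 lists around the TCA cycle. The dashed line marks equal responses and the grey lines 0; Pdpr lies at -1.55 and -0.91, Slc13a3 at -2.17 and -1.81, Pcx at 0.71 and 0.75.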

How the data were processed

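Poly(A) RNA of 20 BV-2 cultures was sequenced from stranded Illumina libraries. The authors aligned reads to GRCm38 with STAR 2.6.1d and counted them per gene with featureCounts 1.5.1. They deposited raw counts per Ensembl gene, used here as given. Settings for strand and multiple alignments are not given in the sources used here. Groups and replicate numbers followed the sample titles.

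Counts were tested with edgeR 4.0.16 (quasi-likelihood F-test, group only, all 20 libraries, TMM, filterByExpr, 12799 genes, Benjamini-Hochberg adjustment) in R 4.3.3 with limma 3.58.1. Contrasts were aged against young cultures, untreated or after LPS, LPS against untreated cultures at each age, and the difference of the LPS responses. SEs are the log2 fold change divided by the square root of F. Symbols, positions and merged exon lengths came from GENCODE M21 on GRCm38. No member shares exon bases with another gene, and BLAST+ 2.17.0 found no other transcript with at least 100 bases at 95% identity. Log2 CPM used a prior count of 2. Upstream sequences are those of RefSeq.

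The members and gene lists were chosen with earlier results of these data known. Named were the 9 members, the largest called rise and fall of each list and contrast, and the 5 genes most correlated with Acod1 over cultures (mean of at least 1 log2 CPM) or over deviations from group means. Clybl, Sugct, Abcg2, Pdk2, Pdk4 and the ratios within a library were added after values were seen. For 1 gene of the glutamine list, results are not reported here.

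Replicate numbers pair cultures, since the labels give them as batches. How cultures with 1 number deviated from their groups correlated across genes at 0.146 on average (-0.214 to 0.394, 30 pairs). Pairs of the same age ran from 0.122 to 0.394, and pairs of different ages from -0.214 to 0.275. Among the latter, all pairs of replicate 1 were negative (-0.214 to -0.0417). No libraries of a group were duplicates, with chi-square per degree of freedom of 2.31 to 24.4. A count of 3 was the floor of detection (counting error only), and the lowest count of a member was 35.

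Alternatives were the replicate block, DESeq2 1.42.0, its size factors in edgeR, library sizes alone, all genes kept, a minimum of 10 counts per culture, fits of the compared groups by themselves, and each replicate left out. DESeq2 without Cook's cutoff and fits without young untreated culture 1 or young LPS culture 1 were added after seeing the data. The fit was tested on simulated data with 200 of 12630 genes changed 2-fold between young LPS and young untreated cultures: edgeR recovered 188 with 10 false calls, and with the block 188 with 8 false calls. These counts held no batch differences, so they cannot compare the fits with and without the block. A 2-fold change also exceeds every difference of the members other than Acod1, so recovery of changes of their size was not tested. Figures used Python 3.11.15 and matplotlib 3.10.9.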

Additional observations from a re-analysis of the deposited data

Results flagged for a closer look

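In 36 combinations of a member and a group, 3 had a culture far from the other 4 of its group by Dixon's test (critical value 0.71), and chance flags about 1 in 20 groups. Acod1 stood at 120.9 CPM in young untreated culture 1, against 20.9 to 23.2 CPM in the other young untreated cultures. Idh3a stood at 206.4 CPM in aged untreated culture 5, against 182.8 to 189.3 CPM, and culture 5 also had the highest Idh3a level of the 3 other groups. Ogdh stood at 359.5 CPM in aged LPS culture 3, against 379.6 to 386.9 CPM. The LPS response of Acod1 differed between ages by a test of the difference itself, at 2.63 (aged minus young, edgeR adjusted p = 0.0067), and at 1.71 without young untreated culture 1.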

How the results depend on the processing

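Members called under LPS in young cultures, 5 of 9, became 9 with library sizes alone, and under LPS in aged cultures, 4, became 7 with the replicate block and 8 with library sizes alone. Between untreated ages 3 became 5 with the block. Between LPS-treated ages 1 became 4 with the block, 3 with library sizes alone, 0 with the size factors of DESeq2, 2 without young untreated culture 1 and 0 without young LPS culture 1. Leaving out a replicate number gave 2 to 3, 4 to 5, 4 to 4, 0 to 2 and 1 to 1 members for untreated age, LPS in young, LPS in aged, LPS-treated age and the interaction. The block changed no other call of a member or named gene than those printed beside them. Over all genes, without replicate 2 the calls for untreated age fell from 1475 to 548, for LPS-treated age from 3717 to 2156 and for the interaction from 818 to 189 (532 and 410 without replicate 4 and 5). Library sizes alone turned the raised share of calls from 48.2% to 27.3% (LPS, young), 50.6% to 28.4% (LPS, aged), 48.3% to 70.1% (LPS-treated age) and 64.4% to 81.3% (interaction). Signs turned for differences of members near 0, of which Ogdh in aged and Mdh2 in young LPS cultures then passed the threshold, both with library sizes alone. The sign also turned for Glud1 under LPS in aged cultures, which had been called (0.15, edgeR adjusted p = 0.0496). Idh1 in the interaction turned to -0.0041 with DESeq2 size factors and -0.12 without young LPS culture 1 and ranged from -0.099 (without replicate 1) to 0.083 over replicates left out. Idh3a there turned to 0.044 with library sizes alone. Ogdh under LPS in aged cultures turned to -0.14 with library sizes alone and -0.0014 with no filter. Between LPS-treated ages Ogdh turned to -0.0034 with DESeq2 size factors, -0.0020 in DESeq2 with or without Cook's cutoff, -0.024 without replicate 1 and -0.00092 without replicate 2 (range over replicates -0.024 to 0.035) and -0.021 without young LPS culture 1. With library sizes alone Mdh2 under LPS turned to -0.17 in young and -0.083 in aged cultures, and Glud1 in aged to -0.010. The cause was not tested. DESeq2 gave no p for Acod1 in any contrast. Without Cook's cutoff the interaction was 2.59 (DESeq2 adjusted p = 0.00109). A fit of only the groups compared could not be made for the interaction.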

Other observations

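Young untreated culture 1, which held the high Acod1 level, was also the highest of the 5 young untreated cultures in 196 of the 401 genes (48.9%) that LPS raised by a log2 fold change of at least 2 in aged cultures. Cultures 2 to 5 were the highest in 51, 76, 43 and 35 of these genes. Over all 3523 genes that LPS raised in aged cultures it was the highest in 1040 (29.5%), against 431, 581, 861 and 610 for cultures 2 to 5. The aged cultures that define these genes are not among the cultures compared.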
